A study of Mus musculus with 6 samples.

Results

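The genes described here are 9 genes, most of them of the epithelial surface, brush border and cell cortex. Their transcript isoforms were used in different proportions after BMP2. The genes are Espn, Mep1a, Cldn7, Smagp, Utrn, Ldb3, Aqp4, Capn9 and AA467197. They were chosen by name from the authors' deposited table of isoforms with changed usage, so usage, q-value and abundance in that table selected them and are given below as a description. The 9 genes hold 18 of the 302 isoforms and are 9 of the 202 genes in the table. The samples are 6 bulk RNA-seq libraries of duodenal crypt organoids, small intestinal epithelium grown in culture, from wild-type C57BL/6 mice. Vehicle organoids (3 libraries) carried no added agent beyond the vehicle, BMP2 organoids (3 libraries) received BMP2 at 100 ng/ml, and both were treated on day 6 and held for 24 h. The labels give no age or sex, and do not say whether the libraries of a condition came from separate cultures or mice.

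Absorptive enterocytes carry a brush border of microvilli, each built on a bundle of actin filaments that proteins such as espin tie together, and they display digestive proteases on its surface. Claudins seal the tight junction between neighbouring cells, while utrophin links cortical actin to membrane glycoproteins at the lateral and basal surface. BMP ligands act toward the villus, opposite to the Wnt signals of the crypt, and are known for their part in enterocyte maturation. AA467197 (also called Nmes1) encodes a small mitochondrial protein and is not a surface gene by that description. Ldb3 is best known from the Z-disc of striated muscle, so its place among surface genes is loose.

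With BMP2, Espn usage rose toward the listed isoform with the most downstream start, Utrn usage rose toward the longest listed isoform, and Ldb3 usage moved from an isoform with 3 short alternative exons to an isoform with a single longer one. Smagp and AA467197 exchanged isoforms with identical coding sequence. Gene levels went both ways. The level implied by the listed isoforms was over 2-fold higher in BMP2 for Capn9, Espn, AA467197 and Smagp and over 2-fold lower for Aqp4, Mep1a and Utrn. Without values per library no level was tested, and in bulk RNA, fewer cells of a type and less RNA per cell cannot be told apart.

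Usage gives an isoform as a percentage of all transcripts of its gene, as the authors computed it for each condition, and TPM is their mean abundance for each condition, scaled for transcript length and library depth. Neither carries a replicate error here, and library depth is unknown. For the 18 isoforms the authors' q-value of the usage change ran from 1.11e-22 (Smagp-201) to 0.0258 (an Aqp4 isoform), where the whole table reached 0.0495. The absolute usage difference ran from 10.6 points (AA467197-201) to 50.5 points (Ldb3-205), with a median of 22.8 points beside 20.15 over all 302 isoforms. AA467197-201 is the member nearest the table's lowest difference of 0.101 as a fraction. Isoforms just outside these limits were not analysed here. Usage rose for 8 of the 18 isoforms and fell for 10, and over the whole table it rose for 45.0%. In 4 of the 8 genes with 2 or more listed isoforms (Smagp, Utrn, Ldb3 and AA467197) a different listed isoform ranked first in each condition, where 41.1% of all 90 such genes did. In vehicle the order was close in AA467197, at 47.8% against 47.1%, and in Smagp, at 46.9% against 44.6%.

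**Figure D1:**
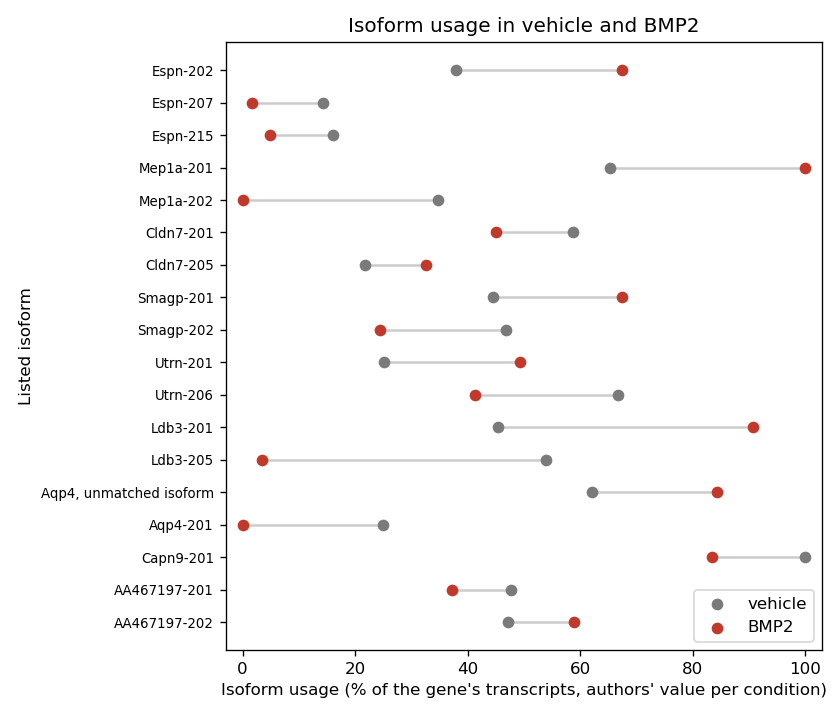
Usage of the 18 listed isoforms (horizontal axis, percent of the gene's transcripts) in vehicle (grey) and BMP2 (red), each point the authors' value for a condition. The longest lines are those of Ldb3, where Ldb3-205 lies at 54.0% in vehicle and 3.5% in BMP2.

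Espn encodes espin, the actin bundler of microvilli (chromosome 4, 152120331 to 152152371, minus strand, GRCm38). Long espins are known from hair cell stereocilia and Sertoli cell junctions, and a small espin from intestinal brush borders. Espn-202 made up 38.0% of Espn transcripts in vehicle and 67.5% in BMP2. Its abundance was 11.9 TPM in vehicle against 97.2 TPM with BMP2, an 8.14-fold higher value. This isoform alone held 75.7% of the difference in the implied Espn level, which was 31.5 TPM in vehicle against 144.1 TPM with BMP2. Both other listed isoforms lost usage, Espn-207 from 14.3% to 1.7% and Espn-215, a model with no annotated coding sequence, from 16.1% to 4.8%. Their abundances stayed low in both conditions, at 4.47 and 2.54 TPM for Espn-207 and at 5.16 and 6.90 TPM for Espn-215. The Espn isoforms that are not listed held 31.6% in vehicle and 26.0% in BMP2, which amounts to 9.97 and 37.5 TPM. The unlisted remainder was thus more abundant in BMP2 while its share was smaller.

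The annotated start of Espn-202 lies 2940 bases downstream of that of Espn-207. Espn-202 has 253 codons in 5 exons and Espn-207 has 285 codons in 8 exons, and they share 644 coding bases, all in the same reading frame. The differences lie at the beginning and in the middle. The isoforms open with different coding exons, printed here because they set the products apart at the amino end, and a stretch of 75 coding bases in Espn-202 is spliced out of Espn-207 and Espn-215. The sequences run 5′ to 3′ on the minus strand (GENCODE M21, GRCm38), with start codons in capitals. They lie at chr4:152128770-152128809, chr4:152131052-152131069 and chr4:152128333-152128407.
Espn-202, first coding exon: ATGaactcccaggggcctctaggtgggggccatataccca
Espn-207, first coding exon: ATGgcccacagcgaggag
Espn-202, stretch absent from Espn-207: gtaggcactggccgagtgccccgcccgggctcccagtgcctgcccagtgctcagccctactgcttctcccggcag
That stretch begins with gt and ends with ag, the letters of an ordinary intron.

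RefSeq (GRCm38.p6) places a start site of Espn exactly at the annotated start of Espn-202. Its window, from 250 bases before the start to 50 after it, is shown because Espn-202, with the highest fold between conditions of the listed isoforms of the 9 genes that were more abundant with BMP2, begins there (chr4:152128876-152129175, minus strand). Capitals mark CAGAC or its reverse complement GTCTG, the core of a SMAD binding element, and GGAGCC or its reverse complement GGCTCC, a form of the GC-rich SMAD element, overlaps counted.
Espn start of Espn-202: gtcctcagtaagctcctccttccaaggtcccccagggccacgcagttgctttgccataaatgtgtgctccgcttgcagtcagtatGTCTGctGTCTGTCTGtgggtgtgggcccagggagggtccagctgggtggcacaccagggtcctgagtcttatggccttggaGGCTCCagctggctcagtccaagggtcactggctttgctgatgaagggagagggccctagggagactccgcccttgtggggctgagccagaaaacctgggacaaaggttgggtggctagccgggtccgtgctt
The window holds 3 matches to the first and 1 to the second. Both upstream Espn windows in RefSeq, at starts 4460 and 20524 bases from that of Espn-207, together hold 1 match to the first and 0 to the second. Neither lies at the start of a listed isoform, so the starts of Espn-207 and Espn-215 were not compared with that of Espn-202. Among 32851 RefSeq windows of the same length, 49.6% hold CAGAC on either strand and 30.8% hold GGAGCC. These shares count windows with any match, and how many hold 3 was not counted. Of the 13 windows found for 8 of the 9 genes, 9 hold CAGAC, 7 hold GGAGCC and 0 hold GGCGCC, which 11.9% of all windows hold. Only 8 of the 13 have a start site within 50 bases of that of a listed isoform. The Ldb3 windows overlap and hold the same GGAGCC match, which is counted in each. A match describes letters only.

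Mep1a encodes the alpha subunit of meprin, a zinc metalloprotease of the brush border (chromosome 17, 43474324 to 43502812, minus strand, GRCm38). Mep1a-201 rose from 65.3% to 100.0% of the gene's transcripts, and Mep1a-202 fell from 34.7% to a listed 0. The level of the gene was lower in BMP2, at 8.49 TPM in vehicle against 2.63 TPM with BMP2, and the abundance of Mep1a-201 was lower too, at 5.57 and 2.63 TPM. Shares in BMP2 thus rest on little RNA. Both models share all 13 introns. Mep1a-202 starts 39 bases further upstream, yet its annotated coding sequence starts 39 bases further downstream, at 747 codons against 760. The opening of the longer frame shows both start codons, that of Mep1a-202 in capitals (chr17:43502716-43502757, minus strand, GRCm38).
Mep1a-201, first coding bases: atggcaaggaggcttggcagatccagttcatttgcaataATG
Every exonic base of Mep1a-201 is also in Mep1a-202, and 46 bases at the ends set the longer model apart.

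Cldn7 encodes claudin 7, a tight junction and lateral membrane protein (chromosome 11, 69964779 to 69967885, plus strand, GRCm38), and was the most abundant of the 9 genes. Cldn7-201 fell from 58.7% to 45.1% and Cldn7-205 rose from 21.8% to 32.6%. Both were more abundant in BMP2. Cldn7-201 stood at 389.0 TPM in vehicle against 555.1 TPM with BMP2, a 1.43-fold higher value, and Cldn7-205 at 144.5 and 402.6 TPM, a 2.79-fold higher value. The implied gene level was 662.8 TPM in vehicle against 1233 TPM with BMP2. Of that difference Cldn7-205 held 45.3% and Cldn7-201 held 29.2%.

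The model of Cldn7-205 lacks the first exon of Cldn7-201, starts 1522 bases downstream and is annotated without a found end. Its 322 coding bases lie in the frame of Cldn7-201 and begin 249 coding bases into it. In claudins the first transmembrane segment and the first extracellular loop lie in the amino-terminal part. Both openings are given to show that the shorter frame starts at an internal methionine codon, in capitals (chr11:69965927-69965956 and chr11:69966969-69966998, plus strand, GRCm38).
Cldn7-201, first coding bases: ATGgccaactcgggcctgcaactgctgggc
Cldn7-205, first coding bases: ATGgtggtgtccctggtgttgggcttctta
Only 25 exonic bases of Cldn7-205 are in no other Cldn7 model.

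Smagp encodes a small transmembrane glycoprotein of epithelial cell contacts (chromosome 15, 100621339 to 100636940, minus strand, GRCm38). Smagp-201 rose from 44.6% to 67.5% and Smagp-202 fell from 46.9% to 24.4%, so that 2 isoforms of nearly equal use in vehicle became unequal in BMP2. The abundance of Smagp-201 was 41.5 TPM in vehicle against 130.0 TPM with BMP2, while that of Smagp-202 was 43.7 and 47.1 TPM. Smagp-201 held 88.8% of the difference in the gene's level, which was 93.04 TPM in vehicle against 192.7 TPM with BMP2, a 2.07-fold higher value. The coding sequence of 97 codons is the same in both. They differ in the first exon, of 297 bases in Smagp-201 and 192 bases in Smagp-202, whose starts lie 85 bases apart and which end at different splice donors, and by 110 bases at the 3′ end.

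**Figure D2:**
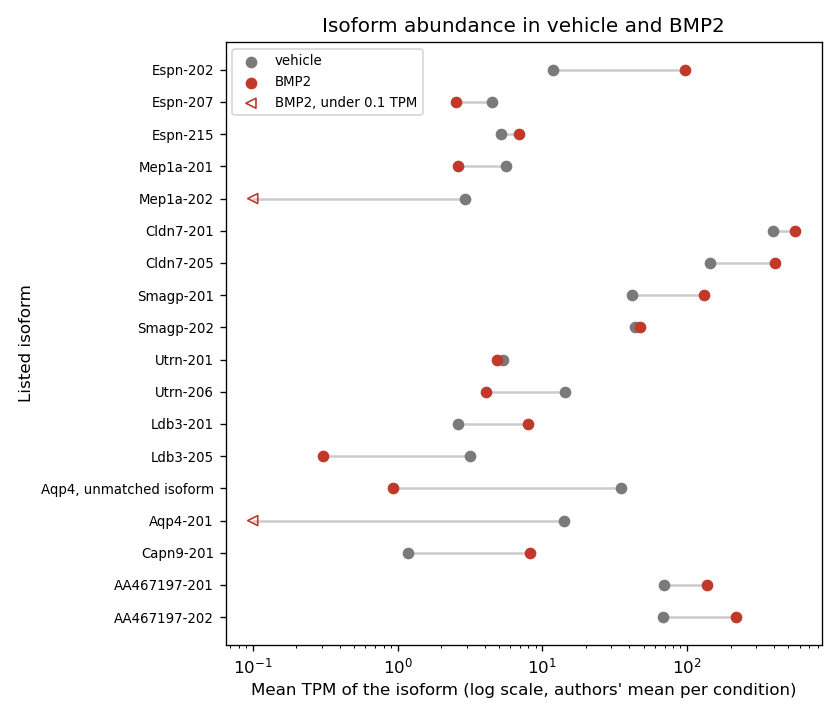
Mean abundance of the 18 listed isoforms (horizontal axis, TPM on a log scale) in vehicle (grey) and BMP2 (red), each point the authors' mean for a condition, with values under 0.1 TPM drawn as open triangles at 0.1. Smagp-202 hardly moves, at 43.7 and 47.1 TPM, beside Smagp-201 at 41.5 and 130.0 TPM.

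Utrn encodes utrophin, the widely expressed relative of dystrophin (chromosome 10, 12382188 to 12869365, minus strand, GRCm38). Full-length utrophin has an actin-binding amino end and a long rod of spectrin-like repeats, and short forms from internal promoters keep the carboxyl end that binds dystroglycan. The short Utrn-206, of 956 codons, fell from 66.8% to 41.3%, and the long Utrn-201, of 3430 codons, rose from 25.2% to 49.3%. Utrn-201 was nonetheless slightly less abundant in BMP2, at 5.37 TPM in vehicle against 4.87 TPM with BMP2. Utrn-206 stood at 14.3 TPM in vehicle against 4.10 TPM with BMP2, 3.48-fold lower. Utrn-206 held 88.9% of the difference in the gene's level, which was 21.35 TPM in vehicle against 9.90 TPM with BMP2.

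Utrn-206 starts 312856 bases downstream of Utrn-201 and shares 23 of its 24 introns with it. Of its coding bases, 2817 are in the frame of Utrn-201 and 51 are its own, all in its first exon. The openings are shown because they separate the short product from the full-length one, with start codons in capitals (chr10:12861596-12861646 and chr10:12547947-12547997, minus strand, GRCm38).
Utrn-201, first coding bases: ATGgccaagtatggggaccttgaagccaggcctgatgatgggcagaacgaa
Utrn-206, first coding bases: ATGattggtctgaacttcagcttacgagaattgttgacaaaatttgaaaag
All 933 bases of the first exon of Utrn-206 are in no other Utrn model. Utrn-201 has 2 such bases. The unlisted Utrn-205 has the same 10290 coding bases and shares 11190 of the 12382 exonic bases of Utrn-201.

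Ldb3 encodes a protein with a PDZ domain and LIM domains (chromosome 14, 34526603 to 34588682, minus strand, GRCm38), known for exons that alternate between heart and skeletal muscle forms. It had the largest usage difference of the 9 genes and a low level, 5.82 TPM in vehicle against 8.74 TPM with BMP2. Ldb3-205 fell from 54.0% to 3.5% of transcripts, with means of 3.15 TPM in vehicle against 0.307 TPM with BMP2. Ldb3-201 rose from 45.4% to 90.8%, with means of 2.64 and 7.93 TPM. The difference of 5.30 TPM in Ldb3-201 was larger than the opposite difference of 2.84 TPM in Ldb3-205.

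Ldb3-201 carries an exon of 359 coding bases where Ldb3-205 carries 3 shorter exons with 242 coding bases in all, and the 10 shared introns flank this exchange. Coding length is 723 codons in Ldb3-201 and 684 in Ldb3-205. The exon gained with BMP2 is shown by its first 240 bases, as coding sequence that Ldb3-205 lacks (chr14:34577105-34577344, minus strand, GRCm38).
Ldb3-201, start of its own exon: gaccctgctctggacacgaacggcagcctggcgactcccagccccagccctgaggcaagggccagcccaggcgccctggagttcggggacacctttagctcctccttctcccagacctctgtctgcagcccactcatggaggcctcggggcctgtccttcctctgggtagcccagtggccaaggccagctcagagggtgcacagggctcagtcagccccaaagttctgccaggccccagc
The models also differ before the start codon, where the first exon of Ldb3-205, of 284 bases, keeps an intron that Ldb3-201 removes between exons of 64 and 119 bases.

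**Figure D3:**
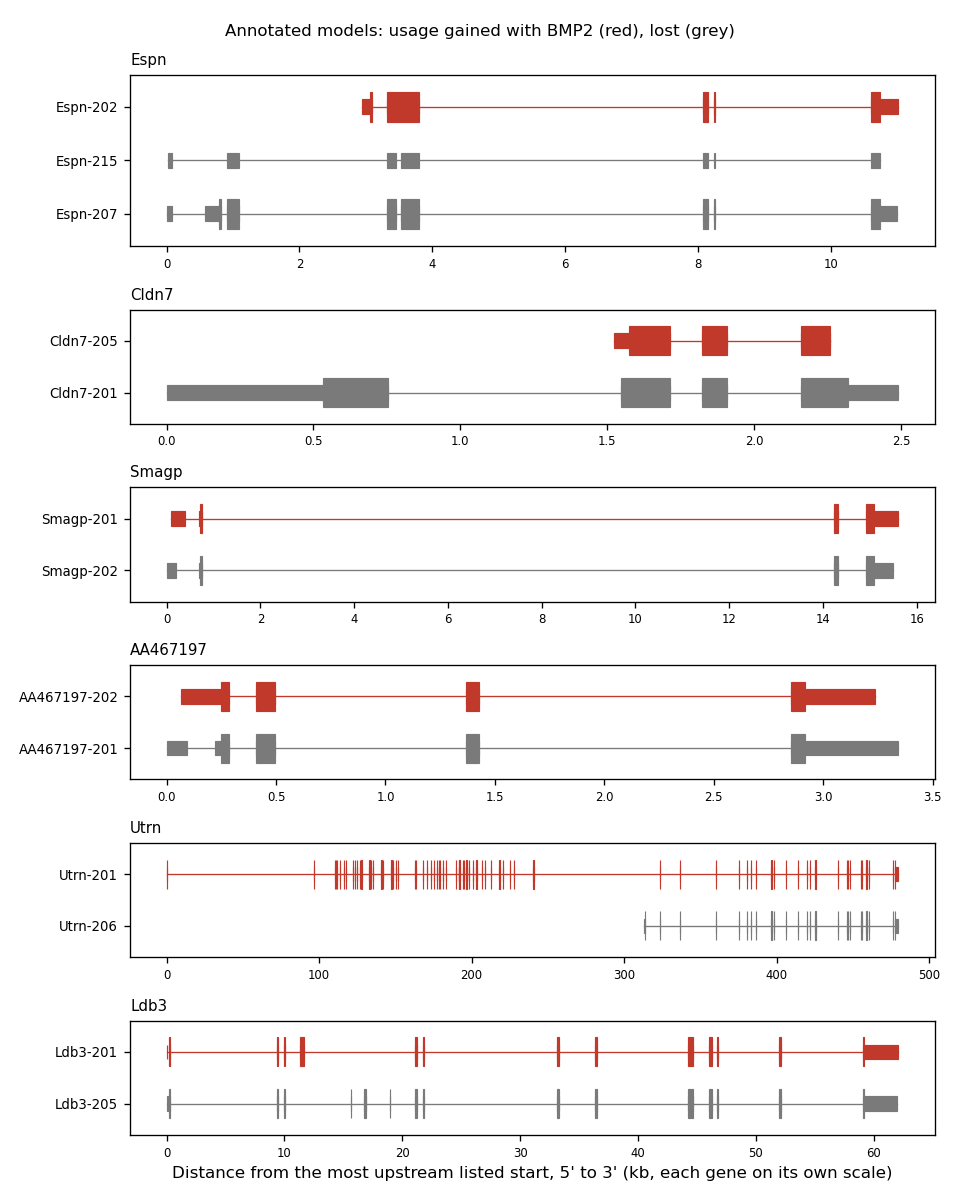
Annotated models of the listed isoforms of 6 genes, drawn to scale from the most upstream listed start (horizontal axis, kb), with thick boxes for coding exons, thin boxes for other exonic bases, and red for usage gained or grey for usage lost with BMP2. Espn-202 begins 2940 bases after Espn-207, Cldn7-205 begins 1522 bases after Cldn7-201, and the coding boxes of Smagp and AA467197 are the same in both isoforms.

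Aqp4 encodes a water channel known from astrocytes and gastric parietal cells. Its level was 56.4 TPM in vehicle against 1.10 TPM with BMP2, which is rank 194 of 195 genes by ratio of levels. Aqp4-201 fell from 24.9% in vehicle, where its mean was 14.0 TPM, to a listed 0 in BMP2. A second isoform, which is not in the annotation used here, rose from 62.2% to 84.4% although its abundance was 35.1 TPM in vehicle against 0.931 TPM with BMP2. A share of a gene at 1.10 TPM rests on little RNA.

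Capn9 encodes a calpain, a calcium-dependent cysteine protease of the stomach and gut. Its implied level was 1.18 TPM in vehicle against 9.89 TPM with BMP2, 8.37-fold higher, the highest ratio of the 195 genes. That rank rests on the low vehicle level, since with 1 TPM added to each level the ratio of Capn9 was 4.99 and ranked behind C1qtnf12 (6.0) and Acad11 (5.22). Capn9-201, the only listed isoform, has 690 codons (chromosome 8, 124576111 to 124618731, plus strand, GRCm38). It fell from 100.0% to 83.5% of the gene's transcripts while its abundance was 1.18 TPM in vehicle against 8.26 TPM with BMP2. The vehicle share rests on a gene level of 1.18 TPM and so on little RNA. Unlisted isoforms, at 0 in vehicle, held 16.5% or 1.63 TPM in BMP2. The annotation holds 3 Capn9 models in all. The RefSeq window at the start of Capn9-201 is shown because Capn9 had the highest ratio of the 9 genes, with or without the added TPM (chr8:124575861-124576160, plus strand, GRCm38.p6), with its match to CAGAC in capitals.
Capn9 start of Capn9-201: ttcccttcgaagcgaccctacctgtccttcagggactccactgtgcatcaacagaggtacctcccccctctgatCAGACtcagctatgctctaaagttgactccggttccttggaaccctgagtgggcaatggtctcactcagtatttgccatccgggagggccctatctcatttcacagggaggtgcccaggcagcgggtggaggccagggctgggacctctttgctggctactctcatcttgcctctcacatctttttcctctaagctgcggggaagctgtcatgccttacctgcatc
It holds 1 match to CAGAC and 0 to GGAGCC.

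AA467197 (chromosome 2, 122636986 to 122641191, plus strand, GRCm38) exchanged its listed isoforms within a gene of high abundance. AA467197-202 rose from 47.1% to 58.9% and AA467197-201 fell from 47.8% to 37.2%. Both were more abundant in BMP2, at 68.5 TPM in vehicle against 218.4 TPM with BMP2 for AA467197-202 and at 69.1 and 137.4 TPM for AA467197-201. The level of the gene was 145.0 TPM in vehicle against 370.2 TPM with BMP2, 2.55-fold higher, and AA467197-202 held 66.6% of the difference. Both encode the same 83 codons. AA467197-202 keeps 130 bases before the start codon that AA467197-201 removes as an intron.

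The last exon of both isoforms contains the hairpin of Mir147 (chr2:122640803-122640881, plus strand, GRCm38.p6). Both isoforms carry the whole hairpin, and so both arms, whatever their usage. Of the arms only the mature miR-147-5p is given, with the seed of that arm, bases 2 to 8, in capitals. Its choice says nothing about which arm acts. The other arm was not examined here.
mmu-miR-147-5p: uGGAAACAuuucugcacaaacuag
The abundance of the microRNA itself was not analysed here.

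Across the 9 genes a gain in usage and a gain in abundance were different things. Of the 8 isoforms with a usage gain, 5 had a higher mean TPM in BMP2, where 77.9% of all listed isoforms with a gain did. The 3 exceptions are Utrn-201, Mep1a-201 and the Aqp4 isoform, all of genes over 2-fold lower in BMP2. Of the 10 isoforms with a usage loss, 5 had a higher mean TPM in BMP2, where 19.9% of all listed isoforms with a loss did. These are Cldn7-201, Smagp-202, Espn-215, Capn9-201 and AA467197-201, each of a gene whose level was higher in BMP2. For these 5 and the 3 exceptions above, the direction of the gene level follows from the arithmetic, because level is TPM divided by usage.

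Gene levels were implied from the listed isoforms as summed TPM over summed usage. By this measure 4 of the 9 genes were over 2-fold higher in BMP2 and 3 over 2-fold lower, where 11.3% and 31.8% of the 195 genes with a level were. The median log2 ratio was 0.90 over the 9 genes and -0.12 over the 195. Smagp, at 2.07-fold, lies just inside the 2-fold limit and Cldn7, at 1.86-fold, just outside it. Because the same contrast put the genes into the table, these shares are given as a description.

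**Figure D4:**
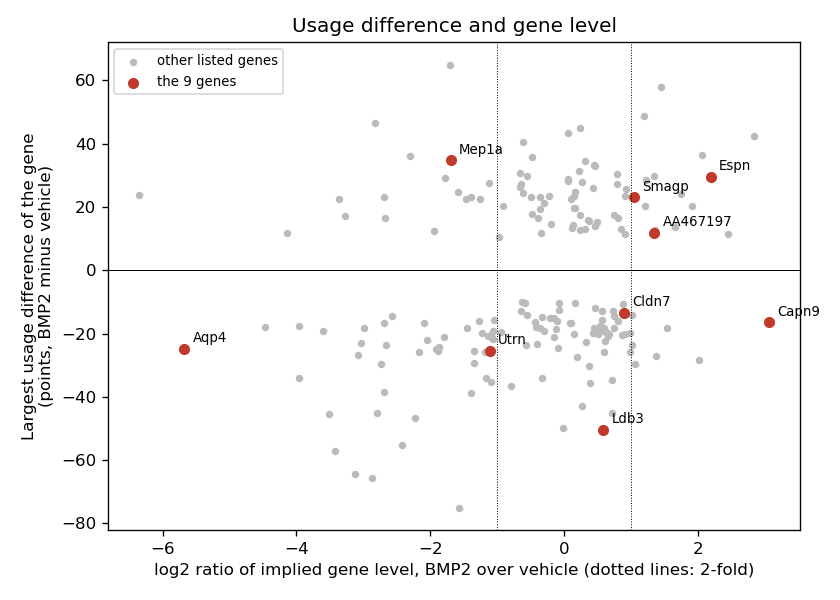
Log2 ratio of the implied gene level (horizontal axis, BMP2 over vehicle) and largest usage difference of the gene (vertical axis, points) for 195 genes, with the 9 genes in red and the 2-fold limits dotted. Capn9 lies furthest right at a ratio of 3.07 and Aqp4 far left at -5.68. For Espn, Smagp and AA467197 the largest usage difference of an isoform is a gain and the gene level is higher.

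The isoforms differ in how much sequence sets them apart, which bears on every usage value because reads from shared sequence have to be divided. Counted as stretches of 31 bases that occur in no other annotated model of the same gene, the 17 matched isoforms ranged from 0% to 87.1% of their sequence, with a median of 7.0%. AA467197-202, Espn-207 and Mep1a-201 had 0 such stretches and Utrn-201 had 2. Capn9-201 and Aqp4-201 had the most, with 87.1% and 80.6%. The other listed Aqp4 isoform is not in the annotation, so Aqp4-201 was not compared with it. The authors' set of transcripts thus differs from the models counted here. For every isoform, the share within the authors' set could not be computed and may be lower or higher. Espn-202 had 154 (13.8%) and Utrn-206 had 930 (16.3%). Cldn7-205 had 24 (7.0%) and Ldb3-201 had 122 (2.40%), although 540 stretches separate Ldb3-201 from Ldb3-205. No exon of the matched isoforms overlaps another gene, save that of Mir147 in AA467197. The part of this in the usage differences was not tested.

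**Figure D5:**
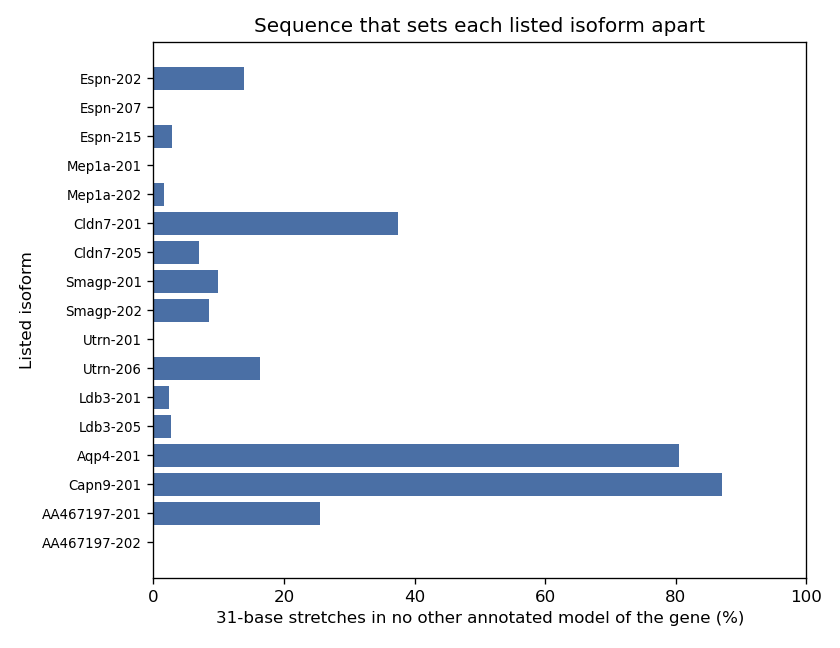
Share of each matched isoform's 31-base stretches that occur in no other annotated model of its gene (horizontal axis, percent). Bars for AA467197-202, Espn-207 and Mep1a-201 are at 0 and that of Utrn-201 is at 0.0162%, while Capn9-201 and Aqp4-201 exceed 80%. The bar of Aqp4-201 leaves out the unmatched Aqp4 isoform, which could not be compared.

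Each of 8 lists, of microvillus structure (26 genes), brush border hydrolases (19), tight and adherens junctions (31), desmosome and surface adhesion (24), the utrophin complex and cortical cytoskeleton (23), PDZ and LIM proteins (12), aquaporins and brush border transporters (18) and calpains (16), had 1 gene in the table, the member described above. The lists are not complete. Tjap1, a tight junction associated protein, and Slc36a1, an amino acid transporter, stand in the table outside them. Both were picked out after their values were seen. Their largest usage differences were -0.235 and -0.146 as fractions, with log2 ratios of gene level of 1.02 and 0.76. Slc29a1, another solute carrier outside the lists, went the other way in both, at 0.125 and -1.945, so these picks show no common direction. Genes outside the table were not analysed here. None of 17 markers of other cell types, among them mesenchymal, immune, muscle and neural cells, is in the table (0 genes), from which nothing follows about their levels, and the epithelial identity of the organoids could not be checked in it.

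By distance in largest usage difference and log2 ratio of gene level over the 2 conditions, the gene nearest to Ldb3 (by Ldb3-205) was Gse1, whose Gse1-202 fell from 58.0% to 13.1% at a log2 ratio of 0.71. Nearest to Mep1a (by Mep1a-201) was Cnnm3, with Cnnm3-201 rising from 47.7% to 76.9% at -1.77. Mep1a-202 has a difference of the same size and opposite sign, and the gene nearest by it was not sought. Nearest to Espn was Tmem86b, with Tmem86b-201 rising from 47.9% to 84.4% at 2.07.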

How the data were processed

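Isoform usage was examined in mouse duodenal crypt organoids given vehicle or BMP2, with 3 libraries each. Transcripts were quantified by the authors with kallisto 0.46.1 on build mm39, per the submitters' processing notes. Per the file headers, the deposited table gives usage fractions per condition, their signed difference (a score here), a q-value and mean TPM over libraries. The test, filters, strand setting and annotation release were not given in the sources used here. Of the authors' 380 ranks, 78 are absent from the table. Values per library and depth were not used here, so p-values and errors were not computed. Any q-value of the authors can rest only on these libraries, and the spread between them may be technical.

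Percent usage is 100 times the deposited fraction. Gene level is summed TPM over summed usage of the listed isoforms, and levels from different isoforms of a gene differed by at most 2.49% (8 genes, usage of at least 0.05). Of the 202 genes, 195 had a level in both conditions. The calculation was run on simulated data with rounded fractions and no replicates, which checks the arithmetic only. Transcript models came from GENCODE M21 (GRCm38), matched by identifier without version, for 17 of 18 isoforms. The authors' build differs, and nothing was converted. The exons used by Ldb3-205 alone are not printed here. Codon counts leave out the stop. Python 3.11.15, pandas 2.3.3 and matplotlib 3.10.9 were used. The members, lists and rules were chosen with earlier results of these data known. All 9 genes are named, with the 3 genes nearest in pattern to the 3 members of largest usage difference. Alternatives were a q of 0.01, a usage difference over 0.2, a mean TPM of 5, other forms of the gene level and a tolerance of 200 bases.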

Additional observations from a re-analysis of the deposited data

How the results depend on the processing

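Of the 18 isoforms, 15 stay with a q below 0.01 from the authors' deposited table and 13 with a mean TPM of at least 5. The q limit removes AA467197 as a gene and the Aqp4 isoform that gained usage. The TPM limit removes Mep1a and Capn9 as genes, and also Espn-207 and Ldb3-205. Ldb3-205 is the isoform with the largest usage difference of the 18. A usage difference over 0.2 leaves 11, of Espn, Smagp, Utrn, Ldb3, Mep1a and Aqp4, so Cldn7, Capn9 and AA467197 drop out. The count of genes over 2-fold higher in BMP2 was 4 with the level taken from the most used listed isoform and with a pseudocount of 1 TPM, 3 with levels of at least 5 TPM required in vehicle and BMP2 (without Capn9) and 6 at 1.5-fold. The count over 2-fold lower was 3 in these alternatives, save that 1 (Utrn) is left under that requirement, which removes genes low in BMP2. With the pseudocount the ratio of Capn9 was 4.99 in place of 8.37 and Aqp4 was 27.3-fold lower in place of 51.1. Starts of the gained and the lost isoform lie over 50 bases apart in 5 of 7 genes and over 200 bases apart in 3 (Espn, Cldn7 and Utrn). No paired analysis was possible because the table holds means per condition. Leaving out replicates was not run for the same reason. Depth cannot be read from TPM, hence the precision of a usage value could not be given.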
